A study of Rattus norvegicus with 8 samples.

Results

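Nid1, Smarca2, Cd244l1, Ngb, Fbxo2 and Lonp1 are 6 genes whose signal in the rat basolateral amygdala moved one way with paired fear training in control rats and the other way in rats that had been through status epilepticus, although Fbxo2 moved little in controls. They were picked by that contrast: the difference of the training effect between epileptogenic and control arrays, set against its error, was the largest for Nid1, Smarca2 and Cd244l1 in one direction and for Ngb, Fbxo2 and Lonp1 in the other, among 10364 named genes tested. The array carries 12 probe sets for these 6 genes out of 31042, and 9 of the 12 were bright enough to be among the 18625 tested. Each gene is led below by its brightest tested probe set.

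RNA came from the lateral and basal nuclei, cut out by laser microdissection on the electrode side, and was read on 8 Affymetrix arrays. Control rats were operated on but not stimulated. Epileptogenic rats had status epilepticus, a prolonged seizure, induced by amygdala stimulation, and showed no spontaneous seizures afterwards. The training on day 8 had 2 trials, each with a 20 s tone of 75 dB and a 1 s shock of 1.5 mA. In paired training the tone ended with the shock, and in unpaired training the shock came before the tone. All rats had been habituated to the apparatus, and tissue was taken 3 h after training. The 4 groups (control unpaired, control paired, epileptogenic unpaired, epileptogenic paired) had 2 arrays each, lettered A and B, and each array held amplified RNA pooled from 2 rats. The strain and age of the rats are not given in the sources used here. No group is free of the shock, so each training effect compares 2 kinds of shock training.

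The 6 genes belong to separate systems. Nidogen-1, encoded by Nid1, is a basement membrane glycoprotein that links the laminin and type IV collagen networks around vessels. Smarca2 encodes BRM, one of the alternative ATPase motors of the BAF chromatin remodelling complex. Cd244l1 is a member of the SLAM receptor family; RefSeq lists 2B4 and Cd244 among its older names, and in mouse and human the receptor 2B4 sits on natural killer and other immune cells and binds CD48. Neuroglobin, encoded by Ngb, is an oxygen-binding globin of neurons. Fbxo2 encodes an F-box protein of neurons that brings high-mannose glycoproteins to an SCF ubiquitin ligase, and Lonp1 encodes the ATP-dependent Lon protease of the mitochondrial matrix.

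RefSeq promoter windows (rat build GRCr8, 250 bases before to 50 after the start) were found for 5 of the 6 genes. They were searched on both strands for 5 motifs of transcription factors, to show what the genes that moved together or apart do and do not share: AP-1 (TGANTCA), the cyclic AMP response element CRE (TGACGTCA), its half-site (TGACG, which also lies within the full element), the Egr motif (GCGNGGGCG) and an E-box (CACGTG). An AP-1 match stood in the windows of Cd244l1 and Ngb, whose training effects ran in opposite directions, and 7.33% of all 33469 windows hold one. Fbxo2 held 2 matches to the half-site, which 21.2% of windows hold. The full CRE (1.83% of windows), the Egr motif (4.98%) and the E-box (6.42%) had 0 matches in the 5 windows. The windows with a match are printed 5′ to 3′ with the matches in capitals, together with that of Cd244, a second gene on chromosome 13, whose window shifted by 63 bases is identical to that of Cd244l1 at 236 of 237 overlapping bases (99.6%). Whether the array's Cd244l1 probe sets also bind Cd244 transcripts was not tested. The array annotation names no probe set Cd244.
Cd244l1, chr13:86552199-86552498, + strand: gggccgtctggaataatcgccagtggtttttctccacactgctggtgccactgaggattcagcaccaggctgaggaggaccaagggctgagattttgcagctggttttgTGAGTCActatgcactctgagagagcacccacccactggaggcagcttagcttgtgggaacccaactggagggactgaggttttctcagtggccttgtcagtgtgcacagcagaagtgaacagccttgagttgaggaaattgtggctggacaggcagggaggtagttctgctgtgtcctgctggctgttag
Cd244, chr13:86584653-86584952, + strand: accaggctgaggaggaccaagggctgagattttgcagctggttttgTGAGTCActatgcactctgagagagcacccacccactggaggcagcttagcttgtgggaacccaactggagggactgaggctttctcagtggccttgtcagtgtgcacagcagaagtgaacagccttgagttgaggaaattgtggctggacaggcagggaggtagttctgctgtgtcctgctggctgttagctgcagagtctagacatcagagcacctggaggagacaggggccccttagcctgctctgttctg
Ngb, chr6:112480737-112481036, - strand: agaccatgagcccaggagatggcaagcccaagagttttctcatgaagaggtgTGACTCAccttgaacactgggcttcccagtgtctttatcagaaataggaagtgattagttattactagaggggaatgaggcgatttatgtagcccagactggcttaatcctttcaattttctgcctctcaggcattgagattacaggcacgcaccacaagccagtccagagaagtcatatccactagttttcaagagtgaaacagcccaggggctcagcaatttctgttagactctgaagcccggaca
Fbxo2, chr5:163875829-163876128, + strand: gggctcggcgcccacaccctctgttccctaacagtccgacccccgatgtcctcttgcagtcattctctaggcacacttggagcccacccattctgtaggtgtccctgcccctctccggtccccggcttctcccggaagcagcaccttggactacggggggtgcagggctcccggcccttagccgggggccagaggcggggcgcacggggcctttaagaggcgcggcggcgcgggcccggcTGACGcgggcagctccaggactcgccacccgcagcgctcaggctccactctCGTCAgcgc

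Across the whole table, no probe set passed for the difference of training effects: 0 of 18625 (0%) had an adjusted p under 0.05 in limma, and 274 (1.47%) had an unadjusted p under 0.05. With the array letter as a block the counts were 0 and 1056 (5.67%). The values of this contrast and of its parts are therefore given for the 6 genes as a description, with the standard error (SE) of the fit across all probe sets and with no test. Just inside the choice stood Cd244l1 and Lonp1, at 4.65 and -3.24 times their SE. Just outside stood Dxo at 4.60 and Rab26 at -3.14. In bulk tissue, fewer cells of a type and less RNA per cell cannot be told apart.

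The log2 signal of Nid1 (probe set 1371518_at) was 8.72 and 8.80 in control unpaired arrays, 7.60 and 7.42 in control paired, 9.12 and 8.86 in epileptogenic unpaired, and 9.83 and 9.64 in epileptogenic paired arrays. The lowest values were those of paired controls and the highest those of paired epileptogenic rats, and no 2 groups overlapped. Paired training went with a log2 difference of -1.25 ± 0.25 (SE) in controls and 0.75 ± 0.25 in epileptogenic rats, a difference between them of 2.00 ± 0.35. In letter A it was 1.83, and in letter B 2.16.

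Smarca2 (1376337_at) had a higher mean signal than 99.5% of probe sets. It read 12.31 and 11.85 in control unpaired, 11.18 and 11.32 in control paired, 11.19 and 10.76 in epileptogenic unpaired, and 12.19 and 11.84 in epileptogenic paired arrays. Control unpaired and epileptogenic paired arrays were both high, and the other two groups both low. The training effect was -0.83 ± 0.26 (log2, SE) in controls and 1.04 ± 0.26 in epileptogenic rats. Their difference was 1.87 ± 0.36, with 2.14 in letter A and 1.61 in letter B.

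Cd244l1 (1370483_at) read 6.06 and 5.85 in control unpaired arrays, 4.33 and 4.84 in control paired, 6.86 and 6.56 in epileptogenic unpaired, and 7.52 and 7.51 in epileptogenic paired arrays. The order of the 4 groups was the same as for Nid1, with no overlap, although 1 of the 2 control paired arrays lay just under the filter level for dim probe sets (log2 4.35). The training effect was -1.37 ± 0.33 (log2, SE) in controls and 0.80 ± 0.33 in epileptogenic rats, and the difference was 2.17 ± 0.47, with 2.38 in letter A and 1.96 in letter B. With an offset of 16 added to each signal before the logarithm it was 1.68.

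Ngb (1387208_at) ran the other way. Its log2 signal was 5.49 and 5.15 in control unpaired arrays, 7.33 and 5.99 in control paired, 5.06 and 4.53 in epileptogenic unpaired, and 2.76 and 3.33 in epileptogenic paired arrays. Paired controls were highest and paired epileptogenic rats lowest, the latter with both arrays under the filter level, and no groups overlapped. The effect of training was 1.34 ± 0.57 (log2, SE) in controls and -1.75 ± 0.57 in epileptogenic rats. The difference, -3.10 ± 0.80, was the largest in size of the 6 but rested on dim signals: it was -4.15 within letter A, -2.04 within letter B and -1.94 with the offset of 16.

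Fbxo2 (1387437_at) differed from the other 5 in that its training effect in controls was small. It read 6.70 and 7.13 in control unpaired arrays, 6.86 and 7.25 in control paired, 8.59 and 8.66 in epileptogenic unpaired, and 6.95 and 7.50 in epileptogenic paired arrays. Only the epileptogenic unpaired arrays stood apart, above all others, while the remaining 3 groups overlapped. Training went with 0.14 ± 0.32 (log2, SE) in controls and -1.40 ± 0.32 in epileptogenic rats, a difference of -1.54 ± 0.45 (-1.80 within letter A, -1.28 within letter B).

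Lonp1 (1398247_at) read 5.73 and 6.29 in control unpaired arrays, 7.12 and 6.79 in control paired, 7.16 and 7.16 in epileptogenic unpaired, and 6.71 and 6.61 in epileptogenic paired arrays. Control unpaired arrays were the lowest, and the other 3 groups lay between 6.61 and 7.16 without overlapping. The training effect was 0.95 ± 0.32 (log2, SE) in controls and -0.50 ± 0.32 in epileptogenic rats, and the difference was -1.45 ± 0.45, with -1.84 in letter A and -1.05 in letter B.

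**Figure D1:**
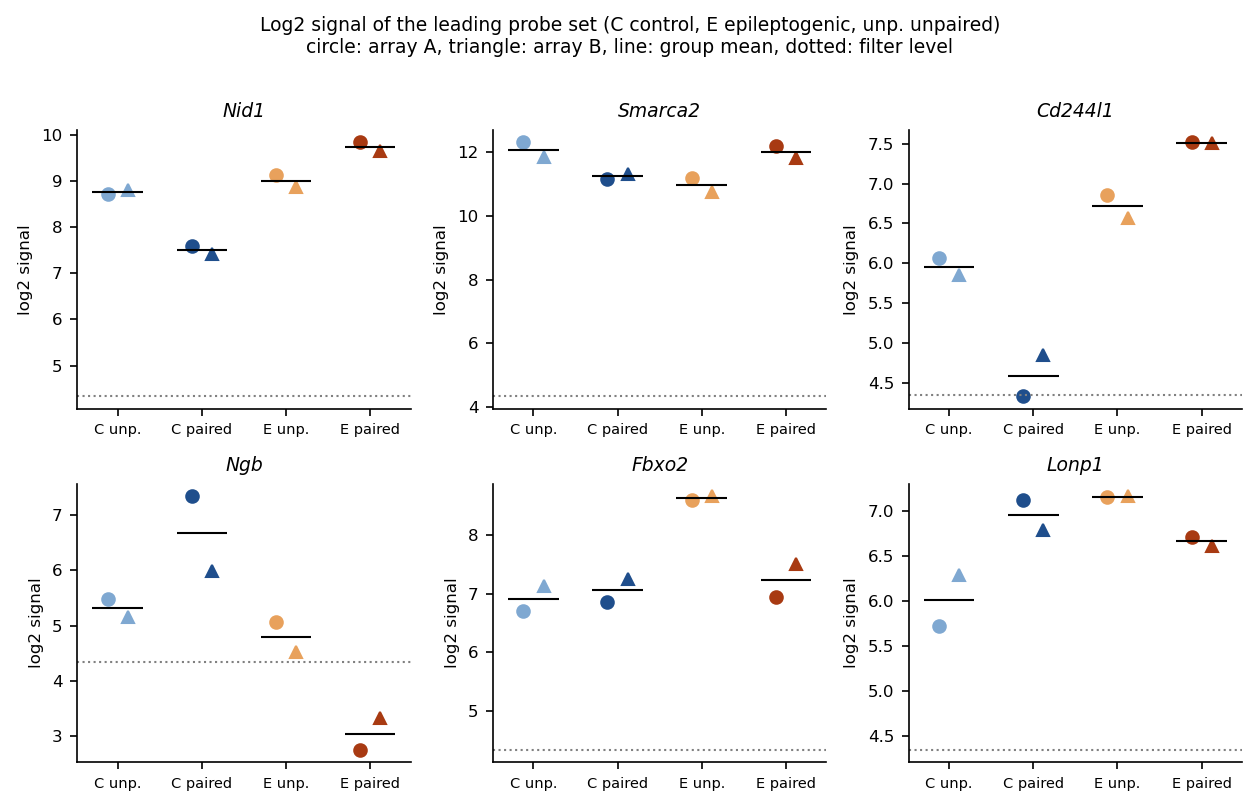
Log2 signal of the leading probe set of each gene in the 8 arrays, by group (x axis; C control, E epileptogenic, unp. unpaired), with array A as a circle, array B as a triangle, the group mean as a line and the filter level of 4.35 as a dotted line. Nid1 and Cd244l1 share one order of groups with control paired lowest and epileptogenic paired highest, Ngb has the reverse order, and Fbxo2 stands apart in epileptogenic unpaired arrays only.

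In 5 of the 6 genes the paired arrays did not overlap the unpaired ones in controls, nor, the other way round, in epileptogenic rats, and Fbxo2 was the exception. Over all tested probe sets 636 (3.41%) were separated in this way. The sign of the training effect was opposite in controls and epileptogenic rats within both letters in all 6 leading probe sets, as in 2751 (14.8%) of those tested. The genes were chosen on this contrast, so nothing is read from either count, nor from the lack of overlap given for single genes above. The share of tested probe sets with all 4 groups apart was not counted.

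Seen by seizure history, the same values fall into 3 patterns. After paired training the log2 difference of epileptogenic from control arrays was 2.23 ± 0.25 (SE) for Nid1, 2.93 ± 0.33 for Cd244l1 and -3.62 ± 0.57 for Ngb, against 0.23 ± 0.25, 0.75 ± 0.33 and -0.52 ± 0.57 after unpaired training. For these 3 genes most of the distance between seizure groups lay in the paired rats. Fbxo2 and Lonp1 had it in the unpaired rats, at 1.71 ± 0.32 and 1.15 ± 0.32, against 0.17 ± 0.32 and -0.30 ± 0.32 after paired training. Smarca2 was lower after unpaired (-1.10 ± 0.26) and higher after paired training (0.77 ± 0.26). These differences contain the contrast that chose the genes and carry no test.

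**Figure D2:**
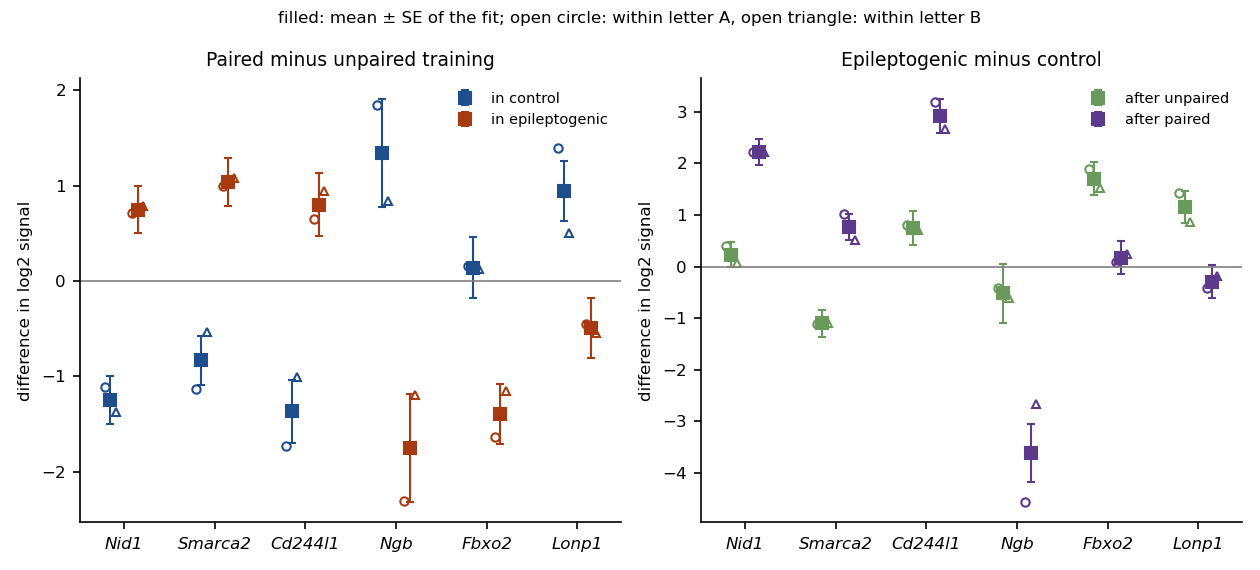
Difference in log2 signal (y axis) of the leading probe set of each gene, for paired minus unpaired training in control and epileptogenic arrays (left) and for epileptogenic minus control after each training (right). Filled squares with bars are the fit's value ± SE, and open circles and triangles the values within letters A and B; in the left panel the 2 colours lie on opposite sides of 0 for every gene, with Fbxo2 in controls close to 0 (0.14).

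Among all tested named genes the training effects of these 6 lay away from the bulk, though not at its farthest edge. Over all probe sets tested the median difference of training effects was 0.07 and 9.12% exceeded 1 log2 unit in size. With quantile normalization that median was -0.01, and with median centring -0.10, so its sign depended on the scaling. Whether it varies with brightness was not tested. Nid1, Smarca2 and Cd244l1 lie in the corner of the plot where training went down in controls and up in epileptogenic rats, and Ngb, Fbxo2 and Lonp1 in the opposite corner. Other genes lie as far out or farther, such as Dxo with a difference of 3.65 ± 0.79 (SE) and Fgfrl1 with 3.12 ± 0.73.

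**Figure D3:**
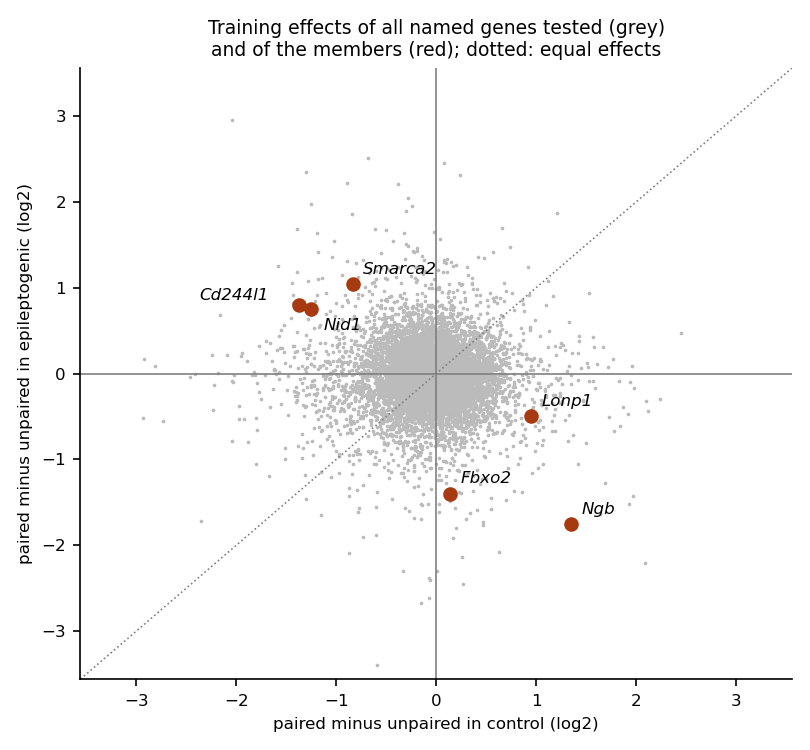
Paired minus unpaired log2 signal in control arrays (x axis) against epileptogenic arrays (y axis) for the leading probe set of 10364 named genes (grey) and the 6 genes (red); the dotted line marks equal effects. Cd244l1 (-1.37, 0.80), Nid1 (-1.25, 0.75) and Smarca2 (-0.83, 1.04) lie at upper left and Ngb (1.34, -1.75), Fbxo2 (0.14, -1.40) and Lonp1 (0.95, -0.50) at lower right.

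The other 6 probe sets of these genes, 3 of them tested, are a second reading of the same arrays and were not used to lead a gene. In 5 of the 6 the difference of training effects had the sign of the leading probe set, and the exception was Ngb. The second Nid1 probe set (1371032_at) had 0.95 ± 0.65 (log2, SE). Those of Smarca2 had 1.13 ± 0.52 (1385074_at) and 0.77 ± 1.07 (1394066_at), so that only 1 of these 3 exceeded its SE by 2 times or more. None of the 3 separated paired from unpaired arrays in both directions as the leading probe sets of the same genes did.

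The remaining 3 probe sets were too dim to be tested. The second Ngb probe set (1370798_a_at) read 4.16 and 5.03 in control unpaired arrays, 1.96 and 1.44 in control paired, 3.17 and 2.00 in epileptogenic unpaired, and 4.32 and 2.19 in epileptogenic paired arrays. It was thus highest where the leading probe set was intermediate and lowest where that one was highest, with a difference of training effects of 3.56 against -3.10. The mean of both Ngb probe sets gave 0.23. The dim Cd244l1 (1369522_a_at) and Lonp1 (1375802_at) probe sets lay under the filter level in all 8 arrays, with differences of 4.41 and -2.93 and a range between the 2 control paired arrays from -1.26 to 3.03 for Cd244l1.

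**Figure D4:**
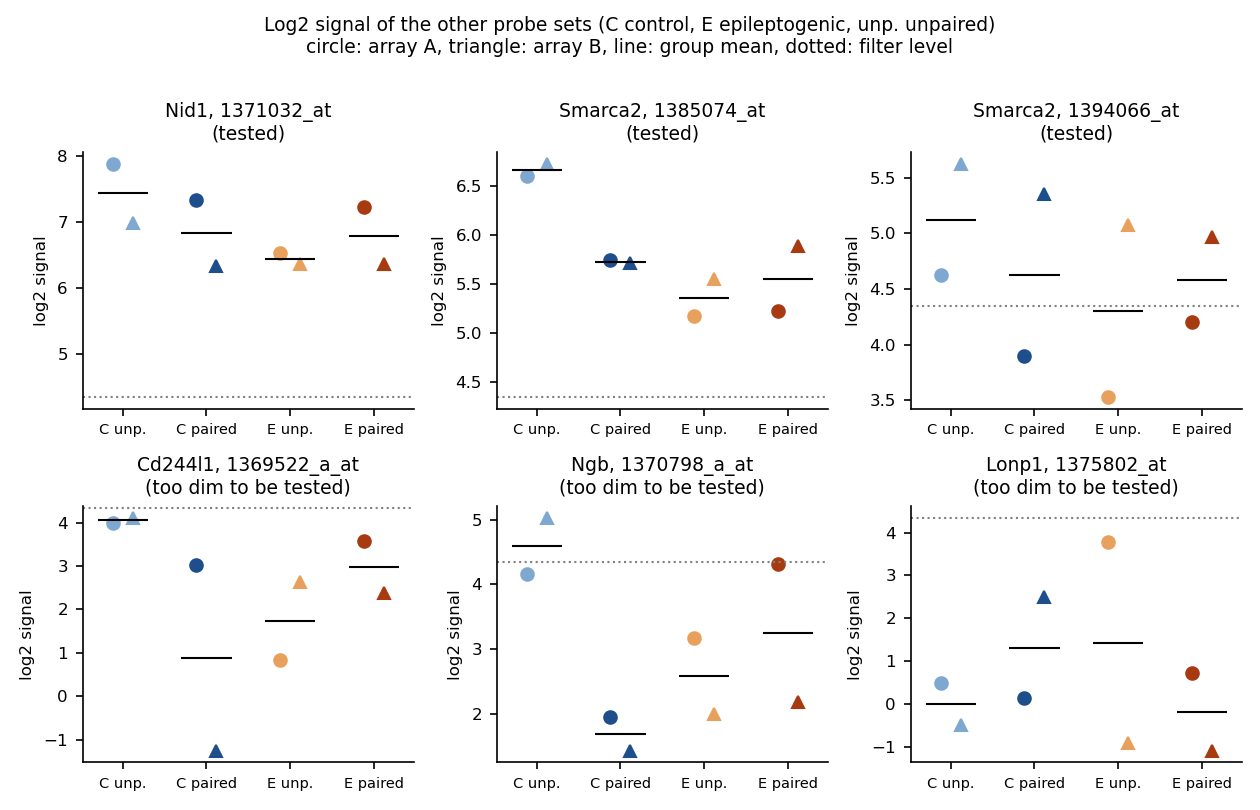
Log2 signal of the 6 probe sets that do not lead their gene, by group (x axis; C control, E epileptogenic, unp. unpaired), with array A as a circle, array B as a triangle, the group mean as a line and the filter level of 4.35 as a dotted line. The Ngb probe set is lowest in control paired arrays (1.96 and 1.44), where the leading Ngb probe set is highest, and the dim Cd244l1 probe set runs from 3.03 to -1.26 between the 2 control paired arrays.

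The comparison of all epileptogenic with all control arrays, averaged over both trainings, is orthogonal to the contrast that chose the genes and was tested. Nid1 and Cd244l1 rose and Ngb fell in epileptogenic rats, while Smarca2, Fbxo2 and Lonp1 did not pass in the main limma fit, which has no block. These are 3 of 6 leading probe sets, where 3.63% of all tested probe sets passed (2.81% higher, 0.827% lower). With the array letter as a block they were 4 of 6, where 16.2% passed (7.58% higher, 8.65% lower). The choice also favoured genes with little spread within groups: 5 of the 6 had a residual SD under the median of 0.40, Nid1 at 0.13 with only 4.11% of tested probe sets lower, and Ngb at 0.56 was the exception. That spread enters this test too.

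Over the 4 epileptogenic arrays of both trainings Nid1 averaged 9.36 ± 0.45 (log2, SD, n = 4), against 8.13 ± 0.72 over the 4 control arrays, which is 2.34-fold higher (log2 difference 1.23 ± 0.18 SE; limma adjusted p = 0.00710). Epileptogenic arrays ran from 8.86 to 9.83 and control arrays from 7.42 to 8.80. Its second probe set ran the other way, without passing (-0.51 ± 0.33, adjusted p = 0.443). The SDs over 4 arrays, here and for the genes below, span both trainings and so hold the training effects. As given above, most of the distance between seizure groups lay in the paired rats for Nid1, Cd244l1 and Ngb. Cd244l1 was 3.58-fold higher, at 7.11 ± 0.48 (SD, n = 4) against 5.27 ± 0.82 (log2 difference 1.84 ± 0.23 SE; limma adjusted p = 0.00430), with no overlap between 6.56 to 7.52 and 4.33 to 6.06.

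Ngb fell, with 3.92 ± 1.06 (log2, SD, n = 4) after seizures against 5.99 ± 0.96 without (log2 difference -2.07 ± 0.40 SE; limma adjusted p = 0.0258). Since 2 of the 4 epileptogenic arrays lay under the filter level, no fold is given: with the offset of 16 the log2 difference was -1.32 ± 0.28 (adjusted p = 0.0316), and the second Ngb probe set, too dim to be tested, had -0.23. The highest epileptogenic array of the leading probe set (5.06) lay just under its lowest control array (5.15). The call of Ngb held without control paired B or without epileptogenic paired B, and was lost when any one of the other 6 arrays was left out (control unpaired A or B, control paired A, epileptogenic unpaired A or B, epileptogenic paired A; adjusted p 0.0549 to 0.112). The separation of groups by itself was common, at 15.1% of tested probe sets.

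For Fbxo2 the log2 difference was 0.94 ± 0.22 (SE; limma adjusted p = 0.0563), and with the letter as a block the adjusted p was 0.00372. Over 8 alternative settings of the fit to all arrays its limma adjusted p ran from 0.00372 to 0.164. Some settings without a block also passed, so this call lay at the threshold. The groups overlapped, with control arrays from 6.70 to 7.25 and epileptogenic arrays from 6.95 to 8.66. Lonp1 had 0.43 ± 0.22 (adjusted p = 0.348) and Smarca2 -0.17 ± 0.18 (adjusted p = 0.679). With the block the second Smarca2 probe set, 1385074_at, passed at -0.74 ± 0.22 (adjusted p = 0.0484; 0.168 without it). Within letter A alone the log2 differences of Nid1, Cd244l1 and Ngb were 1.32, 1.99 and -2.50, and within letter B alone 1.14, 1.69 and -1.64. An additive fit within a letter has 4 arrays, a single array for each group. Its only residual is the difference of training effects that chose the genes, so no p is given from it.

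For paired against unpaired training over all rats 0 of 18625 probe sets (0%) passed in limma, and 214 (1.15%) had an unadjusted p under 0.05. Of the 6 genes only Fbxo2 was among the latter, with a log2 difference of -0.63 ± 0.22 (SE; adjusted p = 1.00, unadjusted 0.0202). The others lay between -0.28 ± 0.23 for Cd244l1 and 0.23 ± 0.22 for Lonp1. Opposite effects in the 2 seizure groups cancel in this average.

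Partners of each gene were read from lists of related genes, each by its brightest tested probe set. Of 23 tested genes of the basement membrane and its receptors, 5 rose in epileptogenic rats (8 with the block) and 0 fell, where 2.81% of all tested probe sets were called higher (7.58% with the block). Among them were Nid1 itself, the laminin-binding integrin chain genes Itga6 (1.52 ± 0.19, log2, SE; limma adjusted p = 0.00419) and Itgb1 (1.21 ± 0.24, adjusted p = 0.0267) and the laminin chain gene Lamb2 (1.20 ± 0.21, adjusted p = 0.0192). The list's median was 0.55, against -0.11 over all probe sets tested. In the difference of training effects its median was -0.10 against 0.07 over all probe sets, and Nid2, the paralogue of Nid1, had -0.16 ± 0.82 where Nid1 had 2.00. The main vascular collagen gene Col4a1 had -0.78 ± 0.62, and the list ran from -1.23 ± 0.72 for the laminin chain gene Lama4 up to Nid1.

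Of 25 tested subunits and partners of the BAF complex none passed between seizure groups (1 fell with the block), at a median of -0.05. Dpf1, a subunit of the neuronal form of the complex, had a log2 difference of -1.02 ± 0.59 (SE; limma adjusted p = 0.407) and Bcl11a -0.49 ± 0.29 (adjusted p = 0.417). The median difference of training effects over the list was 0.03. Smarca2 was the highest at 1.87, Dpf1 the lowest at -2.54 ± 1.19, and Smarca4, the alternative ATPase, had -0.13 ± 0.36.

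The SLAM receptor list had 6 tested genes, of which 4 rose in epileptogenic rats (5 with the block), against the same 2.81% (7.58% with the block) of all tested probe sets. These were Cd244l1, Cd48, which encodes the ligand of 2B4 (1.85 ± 0.26, log2, SE; limma adjusted p = 0.00650), and the signalling phosphatase genes Ptpn6 (2.27 ± 0.38, adjusted p = 0.0157) and Inpp5d (1.38 ± 0.24, adjusted p = 0.0174). The list's median was 1.61. Its median difference of training effects was 0.30, and Cd48 had 0.67 ± 0.52 where Cd244l1 had 2.17. Besides Cd244l1 and Cd48, the tested genes of the list were the signalling genes Fyn, Ptpn6, Ptpn11 and Inpp5d. Slamf9 and the adaptor gene Sh2d1a were too dim to be tested. The receptor genes Slamf1, Ly9, Cd84, Slamf6, Slamf7 and Slamf8 had no probe set, so the counts do not describe the receptor family.

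The 4 tested globin genes included the single call of Ngb (2 lower with the block). Cytoglobin (Cygb) had -0.90 ± 0.31 (log2, SE; limma adjusted p = 0.159). The haemoglobin genes Hbb and Hba-a3 had -1.02 ± 0.53 (adjusted p = 0.347) and -0.02 ± 0.33 (adjusted p = 0.981). The differences of training effects of Cygb, Hbb and Hba-a3 were -0.25 ± 0.62, 0.39 ± 1.06 and 0.34 ± 0.67, against -3.10 for Ngb.

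None of 24 tested genes of SCF ligases and their F-box proteins passed in the main fit without the block (1 higher and 1 lower with it), at a median of -0.13. Fbxo2 had the highest value of the list, and Fbxo9 had -0.54 ± 0.23 (log2, SE; limma adjusted p = 0.250). The scaffold Cul1 and the adaptor Skp1, with which Fbxo2 assembles, had differences of training effects of -0.03 ± 0.33 and 0.01 ± 0.33. The related F-box genes Fbxo6 and Fbxo44 had -0.27 ± 0.47 and 0.36 ± 0.70. Fbxo2 was the lowest of the list in that contrast and the F-box gene Fbxw7 the highest, at 1.03 ± 0.85.

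Of 28 tested genes in a list of mainly mitochondrial proteases and chaperones none passed (1 higher with the block), at a median of 0.01. The list also holds the peroxisomal protease gene Lonp2, the mitochondrial DNA genes Tfam, Twnk and Polg, and the transcription factor genes Atf5 and Ddit3. The inner membrane protease gene Oma1 had 1.47 ± 0.45 (log2, SE; limma adjusted p = 0.115; 0.0268 with the block) and the chaperone cofactor gene Grpel1 -0.34 ± 0.17 (adjusted p = 0.336). In the difference of training effects the list's median was -0.17, and the matrix protease genes Clpp and Clpx had -0.39 ± 0.49 and 0.23 ± 0.48 against -1.45 for Lonp1. Lonp1 was not the lowest of the list: Twnk, the mitochondrial DNA helicase gene, had -1.83 ± 1.04, with 1.29 in controls and -0.54 in epileptogenic rats. No probe set of any of these lists passed for that difference.

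Markers of the cells that could carry these transcripts were read beside them. For all counts of markers, the share over all tested probe sets was 2.81% called higher and 0.827% lower. With the block these shares were 7.58% and 8.65%. For Nid1, 0 of 12 tested endothelial markers passed between seizure groups (3 higher with the block). Their summed signal was 1828 to 2169 in control unpaired, 1778 to 1838 in control paired, 2272 to 2997 in epileptogenic unpaired and 2381 to 2604 in epileptogenic paired arrays. Of 9 tested mural cell markers 0 passed (1 higher with the block), with Pdgfrb, Myl9 and Tagln too dim to be tested, and summed signals were 359 to 510, 373 to 423, 444 to 476 and 439 to 479 in the same order of groups. None of the 10 tested markers of meninges and fibroblasts passed, though 5 were higher with the block, and their sums were 1524 to 1704, 1419 to 1488, 1539 to 3666 and 1602 to 2653. The part of vascular or meningeal tissue in the Nid1 values was not tested.

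For Cd244l1, 11 of 14 markers of natural killer and T cells were too dim to be tested, among them Cd3e, Ncr1, Nkg7, Prf1 and Klrd1. The 3 tested ones did not pass (1 lower with the block) and had a median log2 difference of -0.51 between seizure groups, and their sums were 214 to 254, 162 to 257, 99.6 to 211 and 106 to 109 in the same order of groups. Of 12 tested markers of microglia and macrophages 10 rose (11 with the block), where 2.81% of all tested probe sets were called higher (7.58% with the block). The sums of these markers were 1281 to 1296, 921 to 1189, 4959 to 7028 and 4326 to 5412. Their median difference of training effects was -0.07, from -1.22 ± 1.04 (log2, SE) for C1qb to 2.42 ± 1.37 for Cd68, against 2.17 for Cd244l1. Among markers of neutrophils and monocytes only Lyz2 was tested of 7 with a probe set, and it did not pass. The part of these cells in the Cd244l1 values was not tested.

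For the neuronal genes Ngb and Fbxo2, 3 of 9 tested excitatory neuron markers fell (7 with the block), where 0.827% of all tested probe sets were called lower (8.65% with the block). Their sums ran from 2326 to 2628, 2078 to 2490, 1031 to 1089 and 1115 to 1186. Of 8 tested interneuron markers 1 fell (1 with the block), with sums of 4355 to 6350, 4710 to 6620, 2487 to 5192 and 4445 to 5627. Markers of striatal, central and intercalated neurons, which border the dissected nuclei, were measurable (9 tested, 0 passed, 1 higher with the block), with sums of 2919 to 4546, 2753 to 3522, 1737 to 4534 and 2770 to 4811. Their median difference of training effects was 0.57, against 0.07 over all probe sets. The difference was positive for 8 of 9. The highest was the dopamine receptor gene Drd2 at 2.40 ± 1.17 (log2, SE), with -1.04 in controls and 1.36 in epileptogenic rats. In that contrast the excitatory neuron markers had a median of 0.31, with 5 of 9 positive. The interneuron markers had 0.24, with 6 of 8 positive. The share of positive values over all tested probe sets was not counted, so nothing is read from these counts of signs. Tbr1, Sst and Pvalb were too dim to be tested, and the part of neuron number or of the dissection in these values was not tested.

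Of 13 tested immediate early genes 1 rose between seizure groups (2 higher and 1 lower with the block), and their median difference of training effects was 0.30. Astrocyte markers (10 tested, 3 rose, 4 with the block) and oligodendrocyte markers (10 tested, 1 rose, 4 with the block) had medians of 0.24 and 0.13 in that contrast. Over all tested probe sets 2.81% were called higher between seizure groups (7.58% with the block). Hbb, the only tested gene of the red blood cell list, and the haemoglobin gene Hba-a3 are given above. Array medians spanned signals of 29.0 to 43.2, and array correlations on the log2 scale ran from 0.850 to 0.925. The log2 ratio of the 3′ to the 5′ probe set of Gapdh, a sign of RNA quality, was 3.35 and 3.33 in control unpaired, 3.52 and 3.69 in control paired, 4.00 and 3.09 in epileptogenic unpaired, and 4.19 and 3.22 in epileptogenic paired arrays, and so was higher in letter A than in letter B of both epileptogenic groups. That of beta-actin was 1.87 and 4.42 in control unpaired, 3.21 and 4.30 in control paired, 3.63 and 3.82 in epileptogenic unpaired, and 3.07 and 4.45 in epileptogenic paired arrays, lower in letter A than in letter B of every group. The part of RNA quality in the values of the 6 genes was not tested.

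The 6 genes were also compared by their course over the 8 arrays, as a description. Nid1 and Cd244l1 ran closely together (Pearson r = 0.970 over 8 arrays, which share the seizure difference), and Ngb ran against both (-0.909 and -0.939). Smarca2 ran against Lonp1 (-0.832) and Fbxo2 (-0.707). Nid1 and Smarca2, on the same side of the choice, had an r of 0.443. Leaving out the 6 genes themselves, the gene closest to Cd244l1 and to Nid1 alike was Kctd12, an auxiliary subunit of GABA-B receptors, at 0.982 and 0.966.

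Among genes other than the 6, the next closest to Nid1 were Cyp7b1 (0.951) and Stt3a (0.950), and to Cd244l1 Efemp1 (0.966), an extracellular matrix gene, and Cldn10 (0.966). Smarca2 was closest to Apol3-ps1 (0.957), the adhesion gene Adam23 (0.950) and Supt3h (0.948). Ngb was closest to Paxx (0.973), a gene of DNA end joining, to the lysosomal channel gene Mcoln1 (0.971) and to the phosphatase gene Ppp5c (0.969). Fbxo2 ran with Taldo1 (0.974), an enzyme of the pentose phosphate pathway, Use1 (0.955) and Tmbim6 (0.940). Lonp1 ran with Vgf (0.979), which encodes a secreted neuropeptide precursor, Wdr45 (0.940) and Nfrkb (0.939). Vgf had a difference of training effects of -1.42, against -1.45 for Lonp1. Since Vgf was picked by its course over the same arrays, nothing is read from that likeness. These are the highest correlations among the named genes tested, with the 6 genes left out (Nid1 and Cd244l1 were closer to each other than to all of these but Kctd12 for Cd244l1), and no test was made on them.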

How the data were processed

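The authors deposited a linear intensity for every probe set, computed with MAS5 per the submitters' processing notes; version and scaling are not stated. Per the labels, 30 ng of RNA from each rat went through 2 rounds of amplification before pooling. Signals were taken to log2 with no further normalization, 57 control probe sets were left out, and those whose mean exceeded the 40th percentile (log2 4.35, or 20.3 in signal) were fitted in limma 3.58.1 (R 4.3.3), with 4 group means, an intensity trend and two-sided tests adjusted by Benjamini-Hochberg over 18625 probe sets at 0.05. Names came from the platform annotation, updated through RefSeq (20826 probe sets with 1 symbol, 436 with several, 9780 with none). Detection calls were not used here. The number of arrays limits the precision. Per the series' design text the arrays of a group are biological replicates, and p-values measure the spread between pools. The design text and the sample protocols differ in section thickness, stain and storage temperature.

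The genes and the lists were chosen with earlier results of these data known. Named partners are the passing list genes with the smallest adjusted p (at most 4), or the 2 with the smallest p; paralogues and complex partners beyond them were chosen after their values were seen. Arrays of the same letter deviated together (correlations 0.321 to 0.407 in all 6 pairs of groups), so the letter was also fitted as a block. The steps were tested on simulated data with independent noise in each array. The shared deviation of like letters was not simulated, so that test does not cover it. Figures used matplotlib 3.10.9 in Python 3.11.15.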

Additional observations from a re-analysis of the deposited data

Results flagged for a closer look

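The training effect had opposite signs in control and epileptogenic arrays, within both letters, for all 6 leading probe sets. The difference (epileptogenic minus control, log2) was 2.00 for Nid1, 1.87 for Smarca2, 2.17 for Cd244l1, -3.10 for Ngb, -1.54 for Fbxo2 and -1.45 for Lonp1. The genes were chosen for this difference, 14.8% of all tested probe sets show the same reversal of sign, and the difference was not tested for these genes apart from the fit over all probe sets, in which 0 passed.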

How the results depend on the processing

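The number of probe sets that passed between seizure groups was 677 (77.3% higher). It was 3022 with the replicate letter as a block (46.7% higher), 389 with median centring (96.9% higher), 330 without the intensity trend, 3007 within letter B and 224 to 435 with single arrays left out. Median centring moved the median of all tested probe sets from -0.11 to -0.01. For paired against unpaired training 0 passed in each setting but within letter B, where 150 did (43 higher, 107 lower) in an additive fit to 4 arrays, and for the difference of training effects 0 passed in all 16 alternatives. Of 107 alternative values of the leading probe sets between seizure groups all kept their sign. Of 119 values for the difference 118 kept it, the exception being the mean of both Ngb probe sets (0.23 against -3.10), an alternative chosen after the data were seen, as was raising dim signals to the filter level, under which the dim Cd244l1 and Lonp1 probe sets gave no value. Of the 119 values, 22 kept the sign but moved by at least the pooled SD within groups. The genes were chosen for this difference in the same arrays, so nothing is read from the kept signs.

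For paired against unpaired training, small values that did not pass changed sign. Ngb went from -0.20 to 0.12 with the offset of 16, Smarca2 from 0.10 to -0.069 within letter A, Lonp1 from 0.23 to -0.025 within letter B, and the second Nid1 probe set from -0.13 to 0.070 within letter A. With single arrays left out the ranges were -0.54 to 0.13 for Ngb, -0.014 to 0.22 for Smarca2, -0.38 to 0.12 for the second Nid1 probe set and -0.49 to 0.28 for the dimmest Smarca2 one. Apart from the changes printed here and beside the results, the block of the letter pairing changed no call of these genes. Within 1 letter the difference has no residual spread and no test. Signals near the filter level limit Ngb and Cd244l1.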
